A study of Mus musculus with 4 samples.

Results

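Fatty acid oxidation shortens fatty acids 1 round at a time to make acetyl-CoA and reduced electron carriers. A fatty acid is taken up, joined to coenzyme A, passed into mitochondria as a carnitine ester and cut down by a repeating set of dehydrogenation, hydration, oxidation and thiolysis, while peroxisomes begin the shortening of very long and branched chains. Brown adipose tissue burns fatty acids to make heat and is rich in mitochondria, whereas white adipose tissue mainly stores and releases them. The 36 genes described here cover uptake and activation, the carnitine shuttle, the mitochondrial enzymes, the electron transfer flavoprotein and the peroxisomal enzymes and transporters. They are a chosen list of genes of this pathway, read by the array probes whose gene name equals that of a listed gene. Thioesterases were left out, and the list does not hold every other gene of the pathway. They are 36 of 22146 gene names that were matched to RefSeq.

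Gene expression was compared between wild-type (WT) mice and mice lacking ASK1, a stress-activated kinase encoded by Map3k5, in interscapular brown adipose tissue (iBAT) and epididymal white adipose tissue (eWAT). There were 4 one-colour Agilent arrays, 1 each for WT iBAT, ASK1-deficient (ASK1KO) iBAT, WT eWAT and ASK1KO eWAT, and the RNA on each was a mixture from 3 males of 10 weeks of age. They were of the C57BL/6J strain, the deficiency affects the whole body and not the adipocyte alone, and WT and ASK1-deficient mice were bred separately, so that genotype and breeding line cannot be told apart. A condition has 1 array and so no spread between mice can be had, and within a tissue genes past 2-fold were counted in place of a test.

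All 36 genes had a probe, and all 45 of their probes were well above background on all 4 arrays, so no gene was lost to a filter on low values. A single probe stood for 28 genes, 7 genes had 2 probes and Acox3 had 3. The signal is the linear intensity of the scanner software, and the 75th percentile of an array was 356 in WT iBAT, 371 in ASK1KO iBAT, 673 in WT eWAT and 634 in ASK1KO eWAT. Because these differ between tissues, each log2 ratio was taken after the 75th percentile had been subtracted on the log2 scale, and the value of a gene is the mean over its probes. The median SD of a log2 ratio over the repeated spots of a probe was 0.0869 between genotypes in iBAT and 0.0599 in eWAT, which measures the array and not the mice.

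The targeted gene was lower at 1 of its probes. Its signal there went from 448 in WT to 117 in ASK1KO iBAT and from 701 to 194 in eWAT, and the log2 ratios of Map3k5 were -2.002 and -1.76. The other probe gave -0.06 in iBAT and -0.51 in eWAT. Tissue labels matched their markers, since the median of the brown adipocyte markers was higher in iBAT than in eWAT by 5.93 in WT and 6.05 in ASK1KO, and 3 of 4 measured white adipocyte markers were at least 2-fold higher in eWAT in both genotypes, while Nrg4 was higher in iBAT by 1.09 and 1.04. Markers of other cell types were measured too. The median of 11 measured skeletal muscle markers was 8.12 higher in WT iBAT than in WT eWAT, and hepatocyte markers stood above background in WT eWAT.

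The probes of the genes on which the results turn are shown by their first 30 bases, so that it is clear which transcripts were read. In the pair for Fabp3, the heart-type fatty acid binding protein that carries fatty acids in the cytosol, capitals mark the bases that both sequences share.
Fabp3 probe from transcript base 575: tttatttttTAAAACTGTATCCAAAGGGTG
Fabp3 probe from transcript base 584: TAAAACTGTATCCAAAGGGTGctccaaggt
Acsl5 probe: gcagccaagatcggggtaaagggatcattt
Cpt1a probe from transcript base 2627: acagtcccccgaagtcttttgaatcggctc
Cpt1a probe from transcript base 3941: tcttaggactacttgctaacctctgttact
Cpt1b probe from transcript base 2564: tgctcctctagggcccccgctggaggtggg
Cpt1b probe from transcript base 2834: ttggagagcgctgtccaacctctcatgtgc

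Over their full 60 bases the Fabp3 probes share 51, so they are not independent readings. Those of Cpt1a and Cpt1b do not overlap, and the closest pair of probes between these 2 genes has 24 of 60 bases identical without gaps. On mm9 the Acsl5 probe lies on chromosome 19 from 55368743 to 55369331. The Cpt1a probes lie on chromosome 19 at 3384060 to 3384119 and 3385374 to 3385433, and those of Cpt1b on chromosome 15 at 89247106 to 89247165 and 89246836 to 89246895. Exons were not assigned, as no genome of that build was used.

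**Figure D1:**
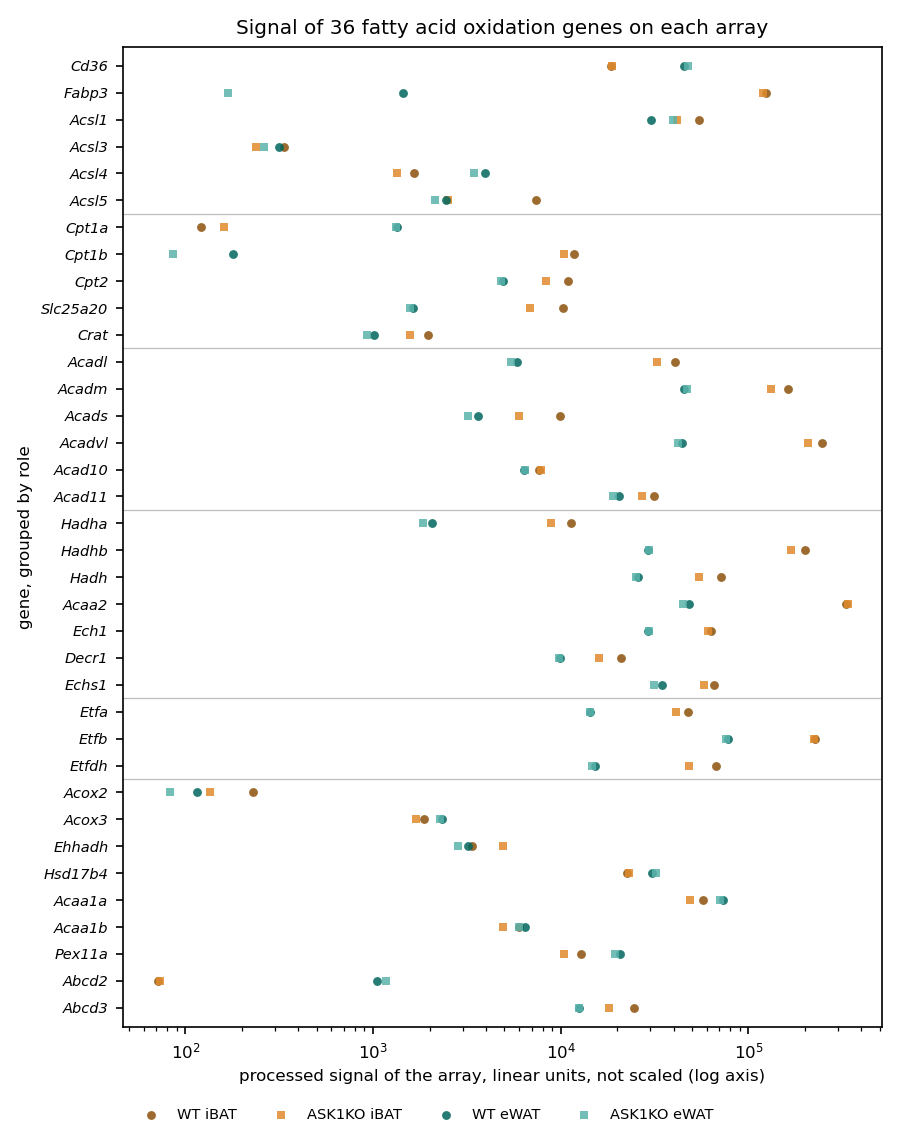
Signal of each of the 36 genes (rows, grouped by role) on each of the 4 arrays, on a log axis, before scaling between arrays. Each point is 1 array, or the geometric mean over probes where a gene has several. Fabp3 and Cpt1b are far brighter on both iBAT arrays, Cpt1a and Abcd2 on both eWAT arrays, and levels of different genes should not be compared.

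The first question was how the 36 genes differ between brown and white fat, as the ground on which the genotypes are compared. In WT mice 26 of 36 genes were at least 2-fold higher in iBAT and 2 were at least 2-fold lower, where 16.4% of all genes measured were higher by that much and 13.4% lower. In ASK1KO mice 25 were higher and 2 lower, against 12.3% and 12.6% of all genes. Without scaling 18 genes were higher and 4 lower in WT, beside 5.11% and 39.6% of all genes, and 14 were higher and 4 lower in ASK1KO, beside 4.28% and 35.6%. The median log2 ratio of iBAT to eWAT was 1.96 in WT and 1.55 in ASK1KO, where the median of all genes was 0.12 and 0.03. Without scaling it was 1.04 and 0.78, where that of all genes was -0.80 and -0.75. In WT 32 of 36 genes were above 0 and in ASK1KO 31, beside 56.4% and 51.4% of all genes.

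A joint limma fit of genotype and tissue over the 4 arrays gave the tests. It takes the effect of tissue as equal in both genotypes, leaves 1 residual degree of freedom, and its residual is the difference between genotypes in the tissue effect and not the spread between mice. By this fit 29 of 36 genes were higher in iBAT and 4 were lower at an adjusted p below 0.05, beside 30.8% and 24.6% of the 14087 genes tested. The other 3 were peroxisomal, with limma adjusted p of 0.0757 for Hsd17b4, 0.0690 for Acaa1a and 0.807 for Pex11a. Without scaling, which lowers the median of all genes in iBAT against eWAT by 0.92 in WT, 22 genes were higher and 8 lower by the joint fit, beside 9.15% and 68.2% of all genes. The sign of Acox3, Hsd17b4, Acaa1a and Acaa1b turned in both genotypes, as did that of Pex11a in WT and Acsl3 in ASK1KO. With quantile or loess normalization only Acaa1a and Pex11a turned.

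In the uptake and activation group, Fabp3 showed the widest gap of the 36 genes. Its probe from base 575 gave 118274 in WT iBAT, 112182 in ASK1KO iBAT, 1309 in WT eWAT and 145 in ASK1KO eWAT. The overlapping probe gave 129070, 126778, 1600.25 and 196. Both iBAT arrays were therefore far above both eWAT arrays, by 162-fold in WT and 1209-fold in ASK1KO after scaling. The joint limma fit gave a log2 difference of 8.79 with SE 0.6001 and an adjusted p of 9.92e-05.

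The long-chain acyl-CoA synthetases, which activate fatty acids with coenzyme A, did not move as 1 block between the tissues. Acsl5 was higher in iBAT by 2.52 in WT and by 1.0003 in ASK1KO, the latter just inside 2-fold. Acsl1, the main isoform of adipocytes, was higher by 1.76 and 0.84, and Acsl3 by 1.01 and 0.63. By the joint fit all 3 were higher in iBAT, beside 30.8% of all genes, although without scaling none of the 3 passed. Acsl4 was lower by the joint fit, with log2 ratios of -0.34 in WT and -0.59 in ASK1KO. Cd36, the membrane receptor for long-chain fatty acids, was also lower by the joint fit, with -0.37 and -0.57. Both passed narrowly in limma, at an adjusted p of 0.0371 for Cd36 and 0.0420 for Acsl4. With median centring these became 0.0587 and 0.0635, in the series table they were 0.0781 and 0.0842, and with no filter on dim probes 0.118 and 0.127, and Acsl4 also failed with genotype left out of the fit, at 0.0602. Cpt1a and Abcd2, the other genes called lower, passed under every setting run. The unscaled Cd36 signal was 18554 and 18864 in iBAT and 45463 and 47789 in eWAT.

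The carnitine shuttle held the clearest division. Carnitine palmitoyltransferase 1, which joins long-chain fatty acids to carnitine at the outer mitochondrial membrane, has a liver form, Cpt1a, and a muscle form, Cpt1b. Cpt1b gave 9247 and 15048 at its 2 probes in WT iBAT and 9259.6 and 11788 in ASK1KO iBAT. In eWAT these probes gave 174 and 185 in WT and 90.4 and 82.7 in ASK1KO. No iBAT value came near an eWAT value, and the joint limma fit gave 7.32 with SE 0.206 and an adjusted p of 8.07e-06.

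Cpt1a was the reverse. At 1 probe its signal was 33.3 in WT iBAT, 44.0 in ASK1KO iBAT, 406 in WT eWAT and 391 in ASK1KO eWAT, and at the other it was 444, 582, 4449 and 4485. It was 5.84-fold lower in iBAT than in eWAT in WT and 4.85-fold lower in ASK1KO, and both probes gave that direction. The log2 ratio ran from -3.47 without scaling to -1.88 with normexp background correction in WT. In ASK1KO it ran from -3.05 to -1.72 under the same settings. The joint limma fit gave a log2 difference of -2.41 with SE 0.155 and an adjusted p of 7.91e-05. Between the tissues, the muscle form was thus higher in iBAT and the liver form higher in eWAT.

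Further along the shuttle, Slc25a20, the translocase that exchanges acylcarnitine for carnitine across the inner membrane, was 3.57 higher in WT iBAT and 2.90 higher in ASK1KO iBAT. Cpt2, which returns the acyl group to coenzyme A in the matrix, was higher by 2.06 and 1.57. Crat, which acts on short acyl groups, was higher by 1.87 and 1.53. All 3 were called higher by the joint fit, beside 30.8% of all genes.

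All 6 acyl-CoA dehydrogenases, which take the first step of each round, were higher in iBAT by the joint fit, beside 30.8% of all genes. Their median was 2.27. Acadl, the long-chain enzyme, differed most, with a signal of 40646 in WT iBAT and 32651 in ASK1KO iBAT against 5849 in WT eWAT and 5431 in ASK1KO eWAT. Its log2 difference was 3.54 with SE 0.162 and a limma adjusted p of 2.92e-05. Acadvl, for very long chains, followed with 3.23, Acadm, for medium chains, with 2.51, and Acads, for short chains, with 2.02. The less studied Acad11 and Acad10 gave 1.41 and 1.12, and the limma adjusted p of Acad10 was 0.104 without scaling.

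All 7 genes of the later mitochondrial steps were also higher in iBAT by the joint fit, with a median of 2.14, beside 30.8% of all genes. The signal of Acaa2, the thiolase that releases acetyl-CoA, was 333154 in WT iBAT, 337345 in ASK1KO iBAT, 48495 in WT eWAT and 44916 in ASK1KO eWAT. The fit gave 3.69 with SE 0.145 and a limma adjusted p of 1.89e-05. Hadhb and Hadha, the subunits of the mitochondrial trifunctional protein, gave 3.49 and 3.204. Hadh was higher by 2.14, the auxiliary isomerase gene Ech1 by 1.92, the hydratase gene Echs1 by 1.75 and Decr1, a reductase for unsaturated chains, by 1.74.

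Electron transfer flavoprotein passes electrons from the dehydrogenases to the respiratory chain through its ubiquinone oxidoreductase, the product of Etfdh. The signal of Etfdh was 67183 in WT iBAT, 48535 in ASK1KO iBAT, 15223 in WT eWAT and 14624 in ASK1KO eWAT, and the fit gave 2.78 with SE 0.183 and a limma adjusted p of 8.76e-05. Etfa and Etfb, its subunits, were higher by 2.48 and 2.40. Among the 21 mitochondrial genes, 20 were at least 2-fold higher in iBAT in both genotypes, beside 16.4% of all genes in WT and 12.3% in ASK1KO. Cpt1a was the exception. Without scaling 16 of the 21 were at least 2-fold higher in WT and 13 in ASK1KO, beside 5.11% and 4.28% of all genes. In both genotypes 20 were above 0, beside 18.3% and 17.4% of all genes above 0.

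The 9 peroxisomal genes differed less between the tissues, with a median log2 ratio of 0.60 in WT and 0.35 in ASK1KO. Higher in iBAT by the joint fit were Acox2 by 1.69, Abcd3 by 1.59, Ehhadh by 1.27, Acaa1b by 0.65 and Acox3 by 0.48. The call of Acaa1b was lost without scaling and with no filter on dim probes, that of Ehhadh without scaling, and that of Acox3 under 6 of the 11 other settings, where without scaling it was called lower. Acox2 is the branched-chain acyl-CoA oxidase, Ehhadh and Hsd17b4 are bifunctional enzymes, Acaa1a and Acaa1b are thiolases, Pex11a acts in peroxisome division and Abcd3 is a transporter of the peroxisomal membrane. Abcd2, another such transporter, was the gene of this group furthest from 0 and ran the other way. Its signal was 71.1 in WT iBAT and 73.2 in ASK1KO iBAT against 1046 in WT eWAT and 1176 in ASK1KO eWAT, and the fit gave -3.10 with SE 0.155 and a limma adjusted p of 3.72e-05. The probes of Acox3 disagreed, with log2 ratios in WT of 1.24, 0.03 and 0.54, and in ASK1KO of 0.79, -0.14 and 0.40. Their signals ran over the 4 arrays from 1447 to 1806, from 1296 to 2874 and from 2243 to 3023.

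**Figure D2:**
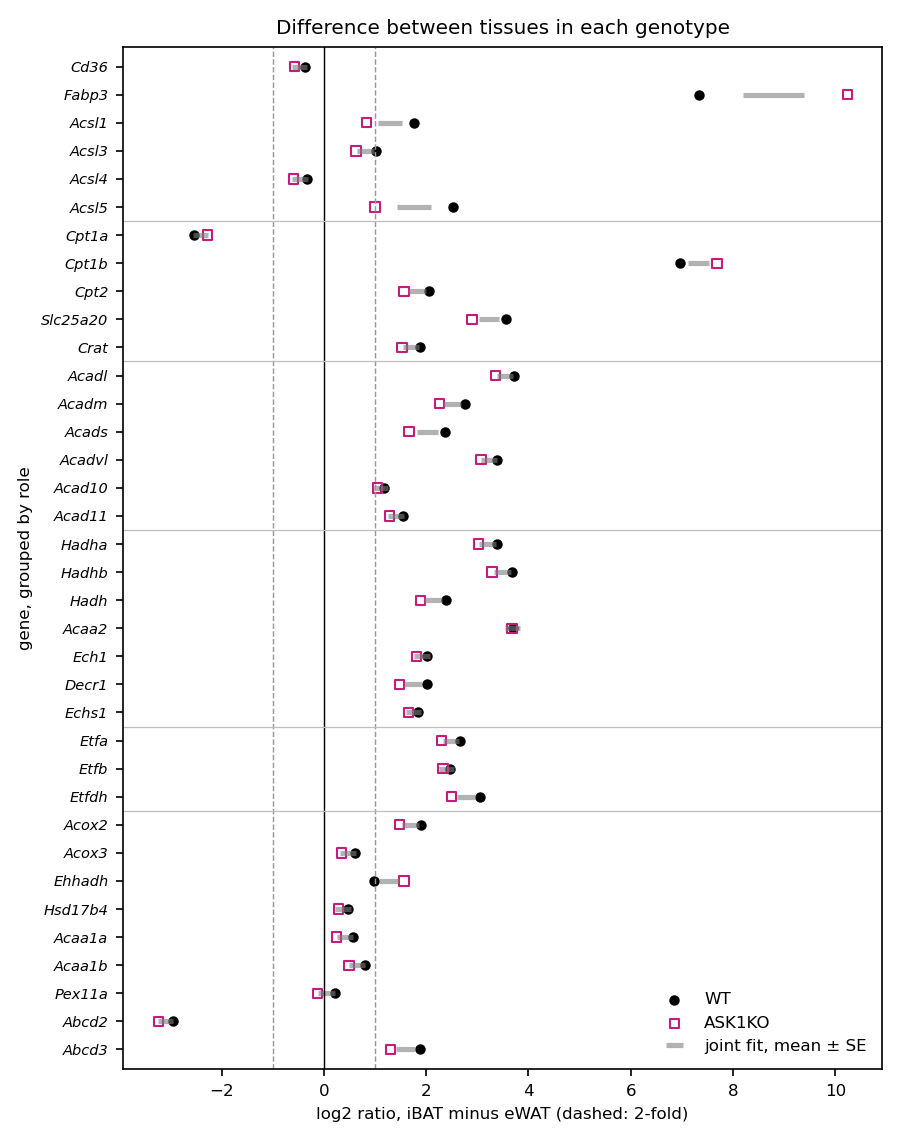
Log2 ratio of iBAT to eWAT for each of the 36 genes in WT (filled circles) and ASK1KO (open squares), with the joint fit shown as mean ± SE (grey bars) and 2-fold as dashed lines. Of 21 mitochondrial genes, 20 lie above 2-fold in both genotypes, beside 16.4% of all genes in WT and 12.3% in ASK1KO. Fabp3 and Cpt1b stand far to the right, and Cpt1a and Abcd2 lie below -1.

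Transcripts of other cells moved with this comparison. The summed signal of 14 probes of skeletal muscle genes, in units of the 75th percentile, was 1008 in WT iBAT and 1007 in ASK1KO iBAT, but 10.3 in WT eWAT and 5.68 in ASK1KO eWAT. Muscle itself expresses Fabp3, Cpt1b and the mitochondrial enzymes, and the share of muscle RNA in the iBAT values was not tested. Macrophage markers ran the other way, with 10 of 10 measured lower in iBAT in WT, at a median of -3.06, and 11 of 12 in ASK1KO, at -2.41. The median of the hepatocyte markers was -3.10 over the 6 measured in WT and 0.91 over the 8 measured in ASK1KO, so these medians cover different genes. The part of either list was not tested. In such bulk RNA, fewer cells of a type and less RNA per cell cannot be told apart.

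The second question was whether the 36 genes differ between ASK1KO and WT iBAT. Most of them were slightly lower in ASK1KO. The median log2 ratio was -0.32, where that of all genes was -0.07, and the quartiles of the 36 were -0.45 and -0.11. With quantile normalization the median was -0.18 and with loess -0.21, where that of all genes was -0.03 and -0.02. Below 0 were 34 of 36 genes, beside 59.6% of all genes. Only Acsl5 was at least 2-fold lower and 0 genes were at least 2-fold higher, beside 1.03% and 0.84% of all genes.

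The signal of Acsl5, a synthetase found at mitochondria and the endoplasmic reticulum, was 7403 in WT iBAT and 2508 in ASK1KO iBAT. The eWAT arrays gave 2448 for WT and 2139.9 for ASK1KO. Before scaling the WT iBAT array thus stood above the other 3. The log2 ratio was -1.62 in iBAT, a 3.08-fold lower level, and -0.11 in eWAT. Over the alternative processings the iBAT value ran from -1.71 to -1.45. It rests on 1 probe spotted once on each array.

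At least 1.5-fold lower were 4 genes, Acsl5, Acox2, Acads and Slc25a20, and 0 were higher by that much, beside 4.27% and 4.54% of all genes. Acox2 went from a signal of 228 in WT to 135 in ASK1KO iBAT, a log2 ratio of -0.82, which was -0.49 with normexp background correction. Acads went from 9907 to 5960.3, a ratio of -0.79, and Slc25a20 from 10302 to 6830.1, a ratio of -0.65. Next came Acsl3 with -0.55, Etfdh with -0.53 and Abcd3 with -0.51.

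Each role held its share of the lower values. The role medians in iBAT were -0.40 for uptake and activation, -0.37 for the carnitine shuttle, -0.33 for the acyl-CoA dehydrogenases, -0.30 for the later mitochondrial steps, -0.27 for electron transfer flavoprotein and -0.30 for the peroxisomal genes. Decr1 gave -0.46, Hadh and Cpt2 -0.45, Acsl1 -0.44 and Hadha -0.42. Acadl, Crat, Acsl4, Acadm, Pex11a, Acaa1b, Acadvl, Acaa1a and Hadhb lay between -0.38 and -0.30. Etfa, Acad11, Echs1, Cpt1b and Acox3 lay between -0.27 and -0.20.

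Some genes sat near 0. Fabp3 and Ech1 gave -0.11, Etfb -0.09, and Acaa2, Cd36, Acad10, Hsd17b4 and Abcd2 lay between -0.04 and -0.02. Only Ehhadh and Cpt1a were above 0. Ehhadh went from 3359 in WT to 4954 in ASK1KO, a log2 ratio of 0.50, and the Cpt1a probes gave 0.34 and 0.33. These 8 genes near 0 are those whose sign turned under at least 1 of the alternative processings. The count below 0 thus ran from 27 genes with quantile normalization to 34, while the share of all genes below 0 ran from 44.9% to 69.7%.

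**Figure D3:**
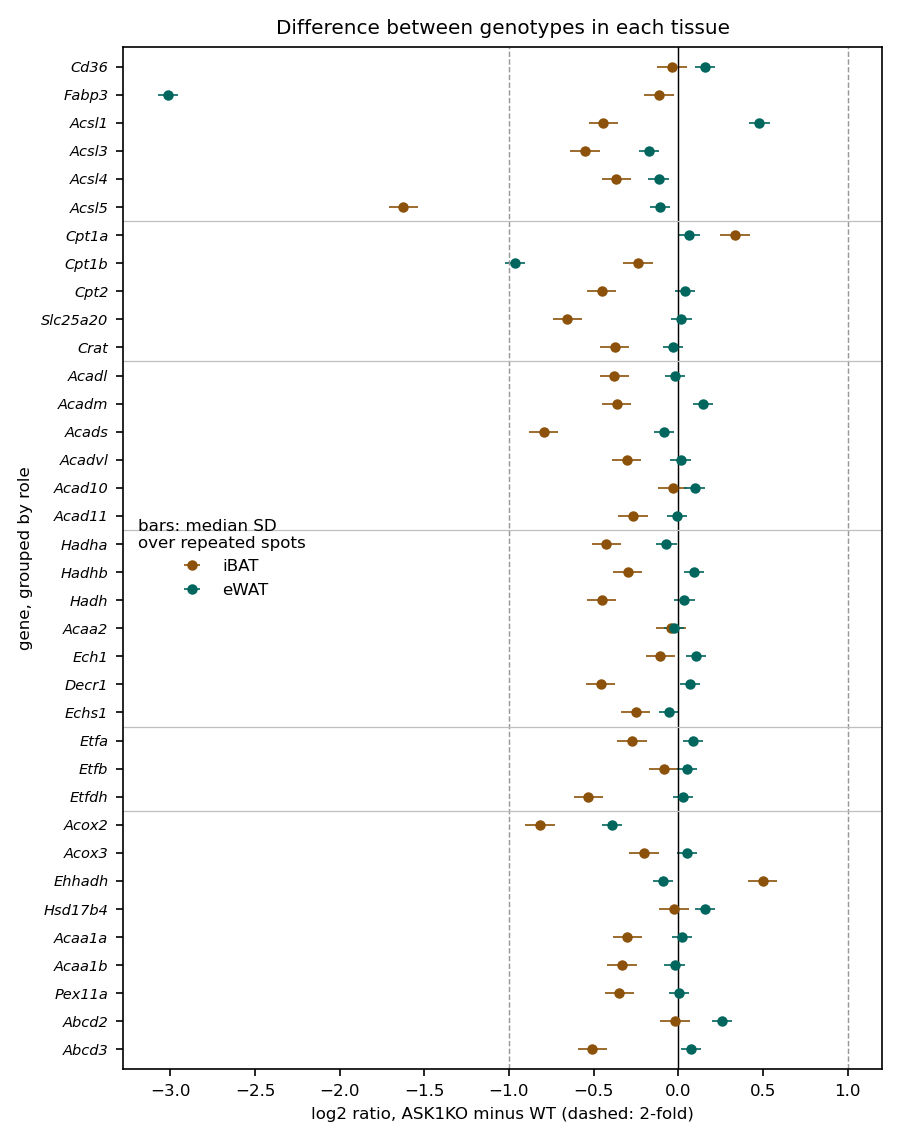
Log2 ratio of ASK1KO to WT for each of the 36 genes in iBAT (brown) and eWAT (green), with the median SD over repeated spots of a probe as bars and 2-fold as dashed lines. In iBAT 34 genes lie left of 0, led by Acsl5 at -1.62, and in eWAT 31 genes lie between -0.17 and 0.16, with Fabp3 at -3.02, Cpt1b at -0.97, Acox2 at -0.39, Abcd2 at 0.26 and Acsl1 at 0.48 outside that range.

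Other transcripts moved between the iBAT arrays too. All 10 measured macrophage markers were higher in ASK1KO, with a median of 0.69, and the summed signal of the list in units of the 75th percentile went from 46.4 to 59.6. The brown adipocyte markers had a median of -0.26, with Elovl3 at -4.10 and Dio2 at -2.37 past 2-fold and Ucp1 at -0.44, the general adipocyte markers -0.27 and the skeletal muscle markers -0.01. Of 5 measured lymphocyte markers 4 were below 0, with a median of -0.39, as were all 4 measured erythrocyte markers, with a median of -0.26. Leaving out Cyp2e1, 7 of 22 hepatocyte probes were well above background in WT iBAT and 15 in ASK1KO iBAT. Their summed signal in units of the 75th percentile went from 12.1 to 15.2. Alb went from a signal of 7.50, which was not well above background, to 115. The 6 hepatocyte markers measured on both arrays, Cyp2e1 among them, had a median log2 ratio of 0.05, with 4 above 0 and 2 below. The part of these lists in the lower values of the 36 genes was not tested.

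In eWAT most of the 36 genes lay near 0. The median log2 ratio of ASK1KO to WT was 0.02, as it was for all genes, and 15 of 36 genes were below 0, beside 45.8% of all genes. Only Fabp3 was at least 2-fold lower and 0 genes were higher, beside 0.863% and 0.292% of all genes. At 1.5-fold 2 genes were lower, Fabp3 and Cpt1b, and 0 higher, beside 2.67% and 1.38%.

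Fabp3 gave 1309 and 1600.25 at its 2 overlapping probes in WT eWAT and 145 and 196 in ASK1KO eWAT. Both probes were lower in ASK1KO, by -3.09 and -2.94, a mean log2 ratio of -3.02 or 8.09-fold, and in iBAT they differed by -0.14 and -0.09. Cpt1b lay just outside 2-fold at -0.97, with probes at -0.85 and -1.08, and passed it without scaling and at its brightest probe. With normexp background correction it was -0.59. Both were read against the same WT eWAT array as in the tissue comparison, so the results share that array.

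Acox2, at 115 in WT and 82.7 in ASK1KO eWAT, gave -0.39. Higher in ASK1KO were Acsl1 with 0.48 and Abcd2 with 0.26. The probes of Acsl1 gave 0.63 and 0.33 in eWAT, from 9647 to 14056 and from 94893 to 112125, and -0.50 and -0.39 in iBAT, from 21531 to 15935 and from 136585 to 108939. The other 31 genes, apart from Fabp3 and Cpt1b, lay between -0.17 and 0.16. The signs of such small values were not firm, as 12 of the 36 turned without scaling.

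**Figure D4:**
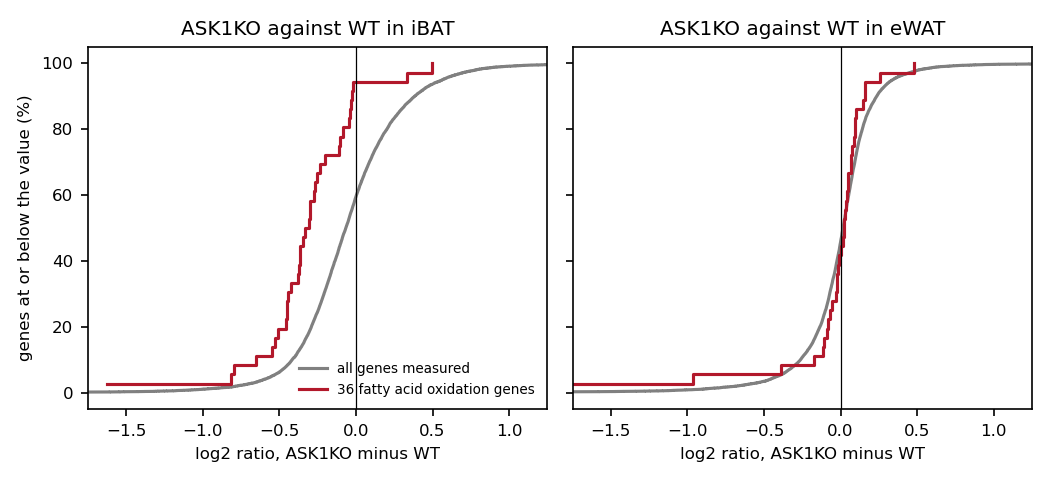
Cumulative share of genes (y axis, percent) at or below each log2 ratio of ASK1KO to WT (x axis) for all genes measured (grey) and the 36 fatty acid oxidation genes (red), in iBAT and eWAT. In iBAT the red line lies left of the grey one, with 34 of 36 genes below 0, and in eWAT the lines lie together with 15 of 36 below 0, and Fabp3 at -3.02 lies outside the range drawn.

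Several lists of other cells moved between the eWAT arrays. Ucp1 went from a signal of 6603 in WT to 252 in ASK1KO and Cidea from 11532 to 2316, and the brown adipocyte list had a median of -0.82, with 7 of 10 measured markers below 0 and a summed signal of 57.2 in WT and 24.95 in ASK1KO in units of the 75th percentile. The muscle list had a median of -0.49, with 8 of 10 below 0, and its summed signal in units of the 75th percentile was 10.3 in WT and 5.68 in ASK1KO. All 8 measured hepatocyte markers were below 0, with a median of -3.61. Of 24 hepatocyte probes 23 were well above background in WT eWAT and 11 in ASK1KO eWAT, and without Cyp2e1, which adipose tissue also expresses, their summed signal was 55.5 and 8.70 in the same units. Their part in the values of Fabp3 and Cpt1b was not tested.

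By the joint fit of genotype, 0 of the 36 genes and 0% of all genes had an adjusted p below 0.05, and 4 of the 36 and 769 of 14087 had an unadjusted p below that. Those 4 were Acox2, Cpt1b, Fabp3 and Acsl5, with limma log2 differences of -0.60, -0.60, -1.56 and -0.86 and adjusted p of 0.735, 0.841, 0.883 and 0.883. With median centring or the series table, limma called Fabp3, at an adjusted p of 1.23e-08 and 2.57e-08, and Acsl5, at 0.0182 and 0.0244, beside 0.994% and 0.93% of all genes. Under these 2 settings the prior degrees of freedom were infinite, so every gene got 1 common variance and its own residual did not count. The fit takes the genotype effect as equal in both tissues, but that of Fabp3 was -0.11 in iBAT and -3.02 in eWAT. Those 2 calls of Fabp3 thus leave out this mismatch. Under the other settings limma called 0 of the 36. The log2 ratio of Fabp3 was 2.90 lower in eWAT than in iBAT and that of Acsl5 was 1.52 lower in iBAT, differences that were not tested.

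Other genes of the pathway were taken from 4 lists that hold none of the names of the 36, with Mlycd in 2 of them. They numbered 88, counted as gene names and not as distinct genes. In the tissue comparison 80 of them were tested by the joint limma fit, and 47 were higher in iBAT and 12 lower at an adjusted p below 0.05, beside the 30.8% and 24.6% of all genes. Of 30 other peroxisomal genes 20 were higher and 1 lower, of 17 other mitochondrial enzymes 12 and 1, of 15 other uptake, activation and carnitine genes 7 and 7, and of 19 transcriptional regulators 9 and 3. Ppara, the nuclear receptor for fatty acids, was 4.60 higher in iBAT, and Esrrg, an orphan receptor of oxidative tissues, 5.20. The coactivators Ppargc1b and Ppargc1a were higher by 3.999 and 3.69.

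Between genotypes in iBAT, the 82 measured genes of these lists had a median log2 ratio of -0.23 and 61 were below 0, beside 59.6% of all genes, with 0 past 2-fold. Of the peroxisomal ones 27 of 30 were below 0, with a median of -0.31 and a range from -0.77 to 0.77, of the mitochondrial enzymes 12 of 17, with a median of -0.20, and of the regulators 15 of 20, with a median of -0.08. The uptake, activation and carnitine genes were evenly divided, with 8 of 16 below 0 and a median of -0.00015. In eWAT the median of 81 genes was 0.04, and 3 were at least 2-fold lower, beside 0.863% of all genes. Slc27a5, a bile acid and fatty acid transport protein of liver, gave -2.69, Hnf4a, a liver transcription factor, -1.97, and Bdh1, a ketone body dehydrogenase, -1.45. Slc27a2 and Esrrb were well above background on 1 of the eWAT arrays only and so have a bound, set against the lowest signal well above background on the dim array. Slc27a2, a very long-chain acyl-CoA synthetase, went from a signal of 270 in WT to 10.9 in ASK1KO, at least 12.2-fold lower, and Esrrb was at least 2.10-fold higher in ASK1KO. Hepatocyte markers were lower on the ASK1KO array, and their part in these values was not tested.

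Upstream sequence was examined for all of the 36 genes with an entry. The table of upstream sequences used here, from RefSeq on GRCm38.p6, matched 30 of the 36 genes, and no sequence was analysed for Cpt1b, Crat, Acaa2, Decr1, Hsd17b4 and Abcd2. Both strands of the 250 bases before the start were searched for the nuclear receptor element DR1, written AGGTCANAGGTCA with 2 mismatches allowed, for the ERR element TCAAGGTCA and for the cyclic AMP element TGACGTCA. DR1 matched in 3 of 30 genes, 10% beside 3.72% of 27025 genes, and neither of the others matched in any of the 30, beside 0.422% and 1.77% of all. No match says only that these letters are not in that window. The 3 stretches with a match are shown with the matched bases in capitals, 5′ to 3′ along the strand of the gene.
Cd36, chr5:17835917-17835989, minus strand: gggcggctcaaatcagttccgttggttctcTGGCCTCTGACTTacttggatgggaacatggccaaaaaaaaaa
Echs1, chr7:140116462-140116534, minus strand: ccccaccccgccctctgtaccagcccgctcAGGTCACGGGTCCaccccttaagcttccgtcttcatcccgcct
Etfa, chr9:55512278-55512350, minus strand: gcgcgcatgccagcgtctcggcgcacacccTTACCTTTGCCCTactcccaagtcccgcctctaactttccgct

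Echs1 and Etfa were higher in iBAT by 1.75 and 2.48 in the joint limma fit and Cd36 was lower, at -0.47, so the 3 matches did not go with 1 direction.

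Hadha and Hadhb, which encode the 2 subunits of 1 enzyme, start head to head on chromosome 5, with 272 bases between their start sites, and their upstream windows share 228 bases. The window of Hadhb is shown because all of it lies between the start sites and so upstream of both genes. Their log2 ratios of iBAT to eWAT in WT were 3.38 for Hadha and 3.68 for Hadhb, and those of ASK1KO to WT in iBAT were -0.42 and -0.30. No capitals are used, as it holds none of the motifs.
Hadhb, chr5:30155003-30155252, plus strand: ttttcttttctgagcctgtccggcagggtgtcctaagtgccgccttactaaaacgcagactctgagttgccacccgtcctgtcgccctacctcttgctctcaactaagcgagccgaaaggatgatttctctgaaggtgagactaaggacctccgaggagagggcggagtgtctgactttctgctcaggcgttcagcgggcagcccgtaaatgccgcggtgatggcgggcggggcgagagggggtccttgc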

How the data were processed

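Total RNA of iBAT and eWAT from WT and ASK1-deficient mice, pooled from 3 males aged 10 weeks, was hybridized to 4 one-colour arrays by a service. The authors deposited the Agilent Feature Extraction 10.7.3.1 output, whose processed signal is a linear intensity with the background corrected and no scaling between arrays, and a series table whose deposited signal is that intensity divided by 1 constant per array that sets its median to 1.

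Control spots and outlier spots were left out, log2 was taken, spots were averaged by probe and the 75th percentile of the array, over the 55672 probes found on all 4, was subtracted. A gene is the mean of those of its probes that exceeded background clearly on both arrays compared, and 22146 of 34840 gene names were matched to RefSeq. Genes at least 2-fold apart were counted. Genotype and tissue were fitted together with limma 3.58.1 in R 4.3.3 (lmFit, eBayes, Benjamini-Hochberg over 14087 genes well above background on all 4 arrays). Because the arrays carry no repeat of a condition, their number limits precision. The 36 genes and the lists of other pathway genes and of markers were chosen with earlier results of these data known. All 36 were named, probe signals were given for those at least 1.5-fold apart between genotypes, those with discordant probes and the widest of each role between tissues, and other pathway genes were named from 2-fold between genotypes, with regulators, Acsl1, Ehhadh, Cd36 and Cpt1a chosen after their values were seen. Alternatives were normexp with an offset of 50, quantile and loess normalization, the series table, median centring, no scaling, a percentile taken from detected probes, the brightest probe per gene, other filters on dim probes, a 1.5-fold threshold and other forms of the fit. Loess and the counts of genes above or below 0 were added after seeing the data. The steps were tested on simulated data. Python 3.11.15, numpy 2.4.6, pandas 2.3.3 and matplotlib 3.10.9 were used.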

Additional observations from a re-analysis of the deposited data

Results flagged for a closer look

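Acsl1 differed in direction between the tissues. Its log2 ratio of ASK1KO to WT was -0.44 in iBAT and 0.48 in eWAT, a difference of -0.92, with both of its probes on the same side of 0 within each tissue. It is given here because each value exceeds the 95th percentile of the SD over repeated spots, 0.325 in iBAT and 0.234 in eWAT. With quantile normalization the iBAT value of Acsl1 was -0.27 and with loess -0.322, both short of that limit. The limit was chosen after the values were seen, and the difference was not tested, since each condition has 1 array. Of 21 listed genes with opposite signs in the tissues it was the 1 past that limit in both, and 0 were past 1.5-fold in both. How many of all genes had opposite signs or passed that limit in both tissues was not counted. Whether these counts are unusual thus cannot be told. Among all genes measured, 59.6% were below 0 in iBAT and 45.8% in eWAT, so opposite signs alone do not mark out the listed genes.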

How the results depend on the processing

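The only paired form was the joint fit, which compares genotypes within tissue and tissues within genotype. Each condition has 1 array, so there were no replicates to pair further, and for the same reason no array was left out. The joint fit already takes genotype and tissue together, and with the other factor left out it called 33 of the 36 genes for tissue, beside 55.8% of all genes, and 0 for genotype. In iBAT the median log2 ratio of ASK1KO to WT was -0.18 with quantile normalization, -0.21 with a percentile from detected probes and -0.21 with loess, and 4 genes passed 1.5-fold, all lower, beside 4.27% of all genes. In eWAT it was -0.067 without scaling, where 27 genes were below 0 beside 68.8% of all genes, and 2 genes passed 2-fold without scaling, 2 at the brightest probe and 2 passed 1.5-fold, all lower, beside 1.03%, 0.909% and 2.67% of all genes. The median log2 ratio of iBAT to eWAT in WT was 1.81 with normexp, 1.58 with quantile, 1.04 without scaling, 1.82 with a percentile from detected probes and 1.71 with loess. In ASK1KO it was 1.41 with normexp, 1.42 with quantile, 0.78 without scaling, 1.46 with median centring, 1.47 with the series table and 1.43 with loess. No gene past 2-fold turned its sign under any of these. Settings that only rescale an array shift all ratios of a comparison alike, by at most 0.92, and so could not turn one. By the joint limma fit 29 to 33 of the 36 genes were called for tissue, beside 47.9% to 77.3% of all genes. For genotype 2 were called with median centring and 2 with the series table, Fabp3 and Acsl5 in both, beside 140 and 131 of all 14087 genes. There the prior degrees of freedom were infinite in place of 5.215, so the residual of a gene did not enter its variance. Of 1440 values of single genes under an alternative, 542 moved by more than the median SD over repeated spots and 0 of those past 2-fold reversed, which rescaling alone could not bring about. A pool of mice per condition, a gene read mostly by 1 probe spotted once, and dim probes limit what these values can carry. Dim ones include those of Acox2, those of Cpt1b in eWAT and 1 of the 2 probes of Cpt1a in iBAT.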
